A study of Mus musculus with 138 samples.

Results

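Myc, Mycn, Max, Mnt, Mga and Zbtb17 are 6 of the 25900 genes counted in mouse embryos at the 2-cell stage, the stage at which the embryo's own genome becomes active. The 6 were taken by name from 2 tables of read counts. The set was selected on the measured fall of Zbtb17, the gene of the protein Miz-1, in embryos of mothers whose oocytes lacked Smarca5, and on the known role of Myc proteins in driving genes of biosynthesis. The change of each of the 6 after the maternal deletion is therefore given as a description, with no test. Tests are given for the embryos in which SMARCA5 protein was targeted after fertilisation.

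The Myc network is a set of transcription factors that share a basic helix-loop-helix leucine zipper and bind DNA in pairs. Myc and Mycn pair with Max, bind E-boxes such as CACGTG and activate many genes of ribosome production, nucleotide synthesis and metabolism. Mnt also pairs with Max but brings the Sin3 corepressor to the same sites. Mga pairs with Max too, carries a T-box besides its helix-loop-helix, and acts in a Polycomb complex that silences germline genes. Miz-1 is a POZ-domain zinc finger protein that activates genes by itself, and with Myc bound to it represses some of them, among them inhibitors of the cell cycle.

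Each library held the polyadenylated RNA of 1 embryo. Libraries labelled Smarca5 +/- came from oocytes without Smarca5 fertilised by wild-type males and are called maternal deletion here, while the Smarca5 +/+ label marks the wild type. Since matKO females stand in every title of this experiment, titles do not tell the mothers apart, and the genotype of the embryo differs between the groups along with that of the oocyte. The driver of the deletion is not given in the sources used here. In the TrimAway experiment, wild-type zygotes received an antibody against SMARCA5 or control IgG for degradation of the target through the ubiquitin ligase TRIM21, and libraries were made at least 24 hours after injection. Uninjected embryos were the further control. Libraries of at least 100000 counts were used: 22 wild type, 28 maternal deletion, 31 anti-SMARCA5, 20 IgG and 15 uninjected. A replicate number stands for a collection or pool of embryos, called technical replicates by the submitters, so p-values measure the spread between embryos of these few pools. Replicates 1 and 2 of the deletion experiment came from different sequencing lanes.

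Kept libraries held 109007 to 12004992 counts, with a median of 1469197. Smarca5 itself lay between 3.31 and 321.8 CPM (counts scaled to a common library size, with TMM factors) in libraries labelled maternal deletion and between 153.3 and 794.2 CPM in wild-type libraries. Trim21 RNA was present, at over 3 counts, in 30 of 31 anti-SMARCA5 libraries and in 8 of 10 IgG libraries of replicate 3, but it was at 0 in all 10 IgG libraries of replicate 1. Genes typical of the 2-cell stage, among them the Zscan4 and Tdpoz families, were present in every group, at over 3 counts in most libraries for 9 of 17 listed genes after the deletion and for 14 to 17 of them in the other groups. The summed level of 10 granulosa cell markers was at most 148.0 CPM in any library, and that of 7 sperm markers at most 38.6 CPM. In well A04 of replicate 2, labelled maternal deletion, and in wells G05 and H05 of replicate 2, labelled wild type, Smarca5 and the oocyte gene Gdf9 went against the label. They were kept, and the fitted changes of Zbtb17, Max and Mga after the deletion are also given without them. Relations between genes across embryos were not repeated without them. A level here is a share of the counts of a library after scaling, so it does not tell how much RNA an embryo held.

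The start regions of Max and Zbtb17 are shown because these genes lay on opposite sides of wild type after the maternal deletion, and because an E-box is the letter sequence to which Myc-Max and Mnt-Max pairs bind. Both run 5′ to 3′ on the strand of the gene, from 250 bases before to 50 bases after the annotated start, and come from RefSeq on GRCm38.p6. Capitals mark the palindrome CACGTG, searched on both strands. The window of Max covers chr12:76962199-76962498 on the minus strand, and the window of Zbtb17 covers chr4:141444423-141444722 on the plus strand.
Max: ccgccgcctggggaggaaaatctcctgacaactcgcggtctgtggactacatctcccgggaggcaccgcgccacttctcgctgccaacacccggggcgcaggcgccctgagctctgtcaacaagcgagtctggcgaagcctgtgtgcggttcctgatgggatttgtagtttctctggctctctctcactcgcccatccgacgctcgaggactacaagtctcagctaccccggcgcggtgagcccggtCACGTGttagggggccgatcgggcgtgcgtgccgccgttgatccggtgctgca
Zbtb17: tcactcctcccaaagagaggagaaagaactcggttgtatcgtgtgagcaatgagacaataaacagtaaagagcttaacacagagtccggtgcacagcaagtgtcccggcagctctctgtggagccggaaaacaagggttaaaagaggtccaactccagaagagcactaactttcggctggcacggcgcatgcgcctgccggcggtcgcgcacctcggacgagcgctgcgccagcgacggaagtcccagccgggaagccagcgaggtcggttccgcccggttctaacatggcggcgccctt
Max had 1 such E-box, which began 3 bases before the start. Mnt also had 1, beginning 123 bases before its start. The windows of Mga and Mycn and both windows of Zbtb17 held none. The letters ATCGAT, a core described for Miz-1 binding, were in none of these windows on either strand. Of 27025 genes with a window, 8.09% held the E-box and 1.02% held the Miz-1 core. The E-box was in 6 of 57 ribosomal protein genes with a window (10.5%) and in 11 of 33 listed biosynthetic Myc targets (33.3%). A match gives letters only and is not a measurement of binding.

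Zbtb17 lies on chromosome 4, positions 141444654 to 141467930, plus strand (GRCm38). In wild-type embryos its level was at lowest 7.68, at the median 98.0 and at highest 358.9. In maternal deletion embryos the lowest was 0, the median 1.2 and the highest 38.2 CPM, and 21 of the 28 libraries held at most 3 counts. All 28 libraries lay below the wild-type median, and 4 of them reached the level of the lowest wild-type library, well A02 of replicate 2. That wild-type library stood apart, since the next lowest held 29.2 CPM. In the TrimAway experiment the median was 50.5 CPM in uninjected embryos (range 18.5 to 140.0), 43.0 CPM with IgG (0.901 to 188.8) and 22.3 CPM with anti-SMARCA5 (0 to 106.2), and the ranges overlapped. Medians differed between pools: 56.9 and 172.9 CPM in wild-type replicates 1 and 2, and 1.46 and 1.14 CPM in those of maternal deletion. For replicates 1 and 3 they were 68.1 and 32.4 CPM uninjected, and 87.4 and 23.6 CPM with IgG. With anti-SMARCA5 they were 41.6, 22.3 and 7.97 CPM in replicates 1, 2 and 3. The order of group medians ran from wild type through uninjected and IgG to anti-SMARCA5, but in replicate 1 IgG lay above uninjected. Neighbours in that order differed by less than their pooled standard deviation (SD) on the log2 scale, and the step from anti-SMARCA5 to maternal deletion exceeded it. Levels of the 2 experiments were scaled separately, so an order across them is a description.

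Zbtb17 shares 41 exonic bases with Spen on the opposite strand, and the handling of strand in the counting is not given in the sources used here. Spen, a corepressor gene, stood at medians of 8.78 CPM after the deletion and 6.79 CPM in wild type. The fitted log2 difference of 0.44 (SE 0.55) was not called by edgeR (adjusted p = 0.495), and 18 of 28 deletion libraries lay above the wild-type median.

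Max, the common partner of the network, lies on chromosome 12, positions 76937269 to 76962248, minus strand. Its level ran the other way. Wild-type libraries held 14.8 to 162.8 CPM with a median of 60.0, and maternal deletion libraries held 16.3 to 449.5 CPM with a median of 190.1. The deletion median lay above every wild-type library, and 27 of 28 deletion libraries lay above the wild-type median. The exception, at 16.3 CPM, was well A04, one of the libraries that went against its label. Uninjected and IgG embryos were close to wild type, at medians of 65.0 CPM (28.3 to 112.8) and 61.1 CPM (27.4 to 299.1), and anti-SMARCA5 embryos had a median of 73.2 CPM (23.9 to 375.0). Within anti-SMARCA5, the 7 libraries of replicate 3 held 150.9 to 375.0 CPM, above all 17 libraries of replicate 1, whose highest value was 133.6 CPM.

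Mga lies on chromosome 2, positions 119897228 to 119969581, plus strand. The median was 288.7 CPM in wild-type embryos (86.2 to 545.0) and 90.4 CPM after the maternal deletion (9.1 to 311.1), and 27 of 28 deletion libraries lay below the wild-type median. TrimAway groups overlapped widely, with medians of 362.6 CPM uninjected, 391.3 CPM with IgG and 336.3 CPM with anti-SMARCA5. The step from wild type to maternal deletion was larger than the pooled SD, as it was for Max, and the other neighbours in the order of Mga medians were closer than that. Per kilobase of merged exon the wild-type medians were 25.3 CPM for Zbtb17, 18.8 CPM for Mga and 16.7 CPM for Max. A median of 0.308 CPM per kilobase for Zbtb17 after the deletion compared with 52.8 for Max and 5.89 for Mga.

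Mycn, on chromosome 12, positions 12936096 to 12941914, minus strand, was near the limit of detection in wild-type embryos. There 15 of 22 libraries held 0 counts and the highest reached 18.6 CPM, in well G05 of replicate 2, whose Smarca5 and Gdf9 went against the label. The next highest held 10.9 CPM. After the maternal deletion 21 of 28 libraries held counts, the median was 16.2 CPM and the highest 327.7 CPM. Most of this came from replicate 2, with a median of 37.8 CPM against 3.23 CPM in replicate 1. Wild-type libraries were shallower, at a median of 545264 counts against 1618485 after the deletion. In replicate 2 these medians were 650104 and 4686051 counts. The part of depth in the number of libraries at 0 was not tested. In the TrimAway experiment the medians were 6.64 CPM uninjected, 12.2 CPM with IgG and 23.9 CPM with anti-SMARCA5, and ranges overlapped. The 5 uninjected libraries of replicate 3 held 0.819, 36.5, 60.1, 84.7 and 146.1 CPM. The 10 of replicate 1 held at most 11.3 CPM, so 4 of the 5 stood above all of them. In the order of medians the pooled SD was exceeded by the step from uninjected down to wild type, and not by those between anti-SMARCA5, maternal deletion, IgG and uninjected.

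Myc, on chromosome 15, positions 61985391 to 61990374, plus strand, was low in every group. Its medians were 0 CPM in wild type, 0.477 CPM after the deletion, 3.87 CPM uninjected, 7.93 CPM with IgG and 7.94 CPM with anti-SMARCA5. All 8 wild-type libraries of replicate 1 held 0 counts, whereas 9 of the 14 of replicate 2 held some and reached 53.6 CPM. One anti-SMARCA5 library of replicate 1 held 195.4 CPM, and the next highest of the 31 held 28.0 CPM, in replicate 2. Mnt, on chromosome 11, positions 74830920 to 74845725, plus strand, was over 3 counts in 45 of 116 libraries, the fewest of the 6, and its highest value was 11.5 CPM. No step between neighbouring group medians of Myc or of Mnt exceeded the pooled SD. Wells without an embryo held 1 count of Myc and 3 of Mga in all, and none of the other 4 genes.

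**Figure D1:**
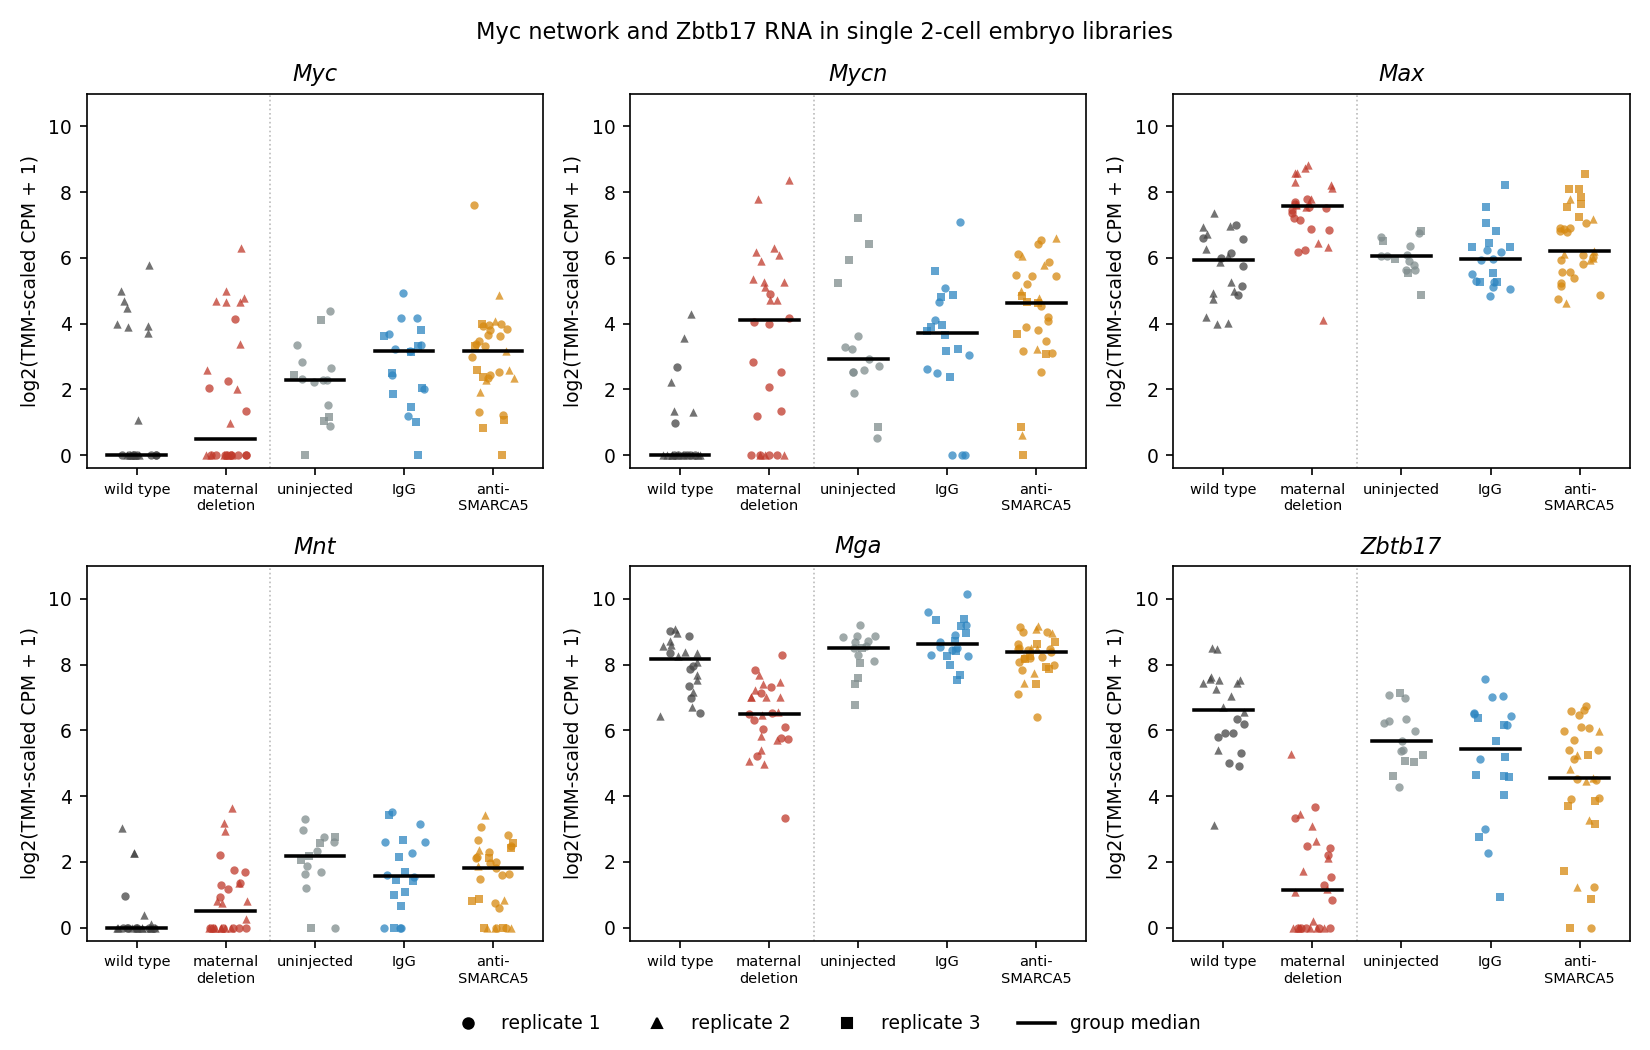
Level of each of the 6 genes in each of 116 embryo libraries, as log2(TMM-scaled CPM + 1) on the vertical axis, by embryo group on the horizontal axis; point shape gives the replicate number and the black line the group median. Zbtb17 and Mga sit low and Max sits high after the maternal deletion, Mycn is at 0 in 15 of 22 wild-type libraries, and the dotted line parts the 2 experiments, which were scaled separately.

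Zbtb17, Max and Mga were the members with enough counts to be fitted in maternal deletion against wild type, a contrast in which edgeR called 56.6% of the 8518 genes tested at an adjusted p-value under 0.05 (30.3% higher and 26.4% lower). The log2 fold change was -5.11 for Zbtb17 (SE 0.62), 1.62 for Max (SE 0.29) and -1.43 for Mga (SE 0.27). In replicate 1 alone and in replicate 2 alone the values were -4.37 and -5.17 for Zbtb17, 1.08 and 2.07 for Max, and -1.37 and -1.35 for Mga. Without the 3 libraries that went against their label they were -5.22, 1.69 and -1.55. Myc, Mycn and Mnt could be fitted without the filter on low counts, at log2 fold changes of -0.07 (SE 0.84), 4.02 (SE 0.84) and 0.69 (SE 0.88). Levels of maternal transcripts moved with this contrast: the mean of log2(CPM + 1) over 20 such genes had a median of 8.14 after the deletion and 5.11 in wild type, and its part in these values was not tested.

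The comparison of anti-SMARCA5 with IgG asks whether targeting the protein in the zygote was followed by changes in the same genes. Here 3.03% of 10447 genes tested were called (1.73% higher and 1.3% lower). None of the 5 members that passed the filter was among them. The log2 difference of Zbtb17 was -0.70, with a standard error of 0.45 and a 95% interval of -1.58 to 0.18 (edgeR adjusted p = 0.303). Of the 31 anti-SMARCA5 libraries, 22 lay below the IgG median. Max gave 0.56 (SE 0.30, adjusted p = 0.219), and Mga gave -0.44 (SE 0.18, adjusted p = 0.121). Myc gave 0.82 (SE 0.49, adjusted p = 0.263) and Mycn 0.64 (SE 0.48, adjusted p = 0.374). The value of Myc rested on 1 library, well A07 of anti-SMARCA5 replicate 1 at 195.4 CPM. Without it, a choice made after it was seen, Myc was at 0.04 (SE 0.39, adjusted p = 0.955), and DESeq2 with all libraries gave -0.05 (adjusted p = 0.935).

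Max and Mga passed the threshold once replicate number was a blocking term, which leaves replicates 1 and 3. That fit called 28.1% of 10100 genes (13.1% higher and 15.0% lower), so both calls came where many genes passed. Max then rose by 0.82 (SE 0.24, edgeR adjusted p = 0.0113) and Mga fell by 0.55 on the log2 scale (SE 0.19, adjusted p = 0.0295). Zbtb17 was at -1.06 (adjusted p = 0.0775). The same libraries without the block gave 0.64 for Max (adjusted p = 0.18), -0.51 for Mga (adjusted p = 0.0896) and -0.59 for Zbtb17 (adjusted p = 0.424). Replicate 3, where IgG libraries also carried Trim21, gave by itself 1.16 for Max (adjusted p = 0.0411), -1.67 for Zbtb17 (adjusted p = 0.146) and -0.48 for Mga (adjusted p = 0.26), and called 16.5% of genes. Replicate 1, where IgG libraries held no Trim21, gave 0.63, -0.70 and -0.59 with adjusted p-values of 0.219, 0.401 and 0.177. The difference between the replicates was tested as an interaction and was called for 0.366% of genes and for none of the 5 members, with 0.54 for Max (SE 0.49, adjusted p = 0.62) and -0.92 for Zbtb17 (SE 0.94, adjusted p = 0.674).

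Anti-SMARCA5 against uninjected embryos shares its anti-SMARCA5 libraries with the comparison above. It called 27.9% of 10750 genes (17.5% higher and 10.4% lower), or 409 higher among 2283 when libraries were scaled by total counts against 1885 higher among 2999 with TMM. Max rose by 0.76 (SE 0.30, edgeR adjusted p = 0.04998), and 18 of 31 libraries lay above the median of the uninjected ones. This call was at the threshold. Among other settings it was lost with the replicate block (0.60, adjusted p = 0.0659), with DESeq2 (0.60, adjusted p = 0.0648), with total-count scaling (0.20, adjusted p = 0.596), without replicate 1 (1.31, adjusted p = 0.168) and without replicate 3 (0.21, adjusted p = 0.625). Zbtb17 gave -0.88 (SE 0.44, adjusted p = 0.119, interval -1.75 to -0.02), Myc 1.37 (SE 0.57, adjusted p = 0.0626), Mga -0.05 (SE 0.19, adjusted p = 0.869) and Mycn 0.30 (SE 0.54, adjusted p = 0.692). Without well A07 of replicate 1, Myc was at 0.58 (SE 0.44, adjusted p = 0.318), and DESeq2 with all libraries gave 0.43 (adjusted p = 0.421).

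For Mycn and Max the change against uninjected embryos differed between pools. In replicate 1 alone, Mycn was 2.62 higher with anti-SMARCA5 on the log2 scale (SE 0.50, edgeR adjusted p = 0.00163), and in replicate 3 alone its value was -2.32 (SE 0.94, adjusted p = 0.0748). These fits called 15.6% of genes in replicate 1 and 26.7% in replicate 3. The difference between the replicates, tested as an interaction chosen after these values were seen, was -4.88 (SE 0.98, adjusted p = 0.00178). Max gave 0.12 in replicate 1 (adjusted p = 0.789) and 1.79 in replicate 3 (adjusted p = 0.00587), a difference of 1.72 (SE 0.48, adjusted p = 0.0169). This interaction was called for 12.6% of 10283 genes. For Mycn the uninjected libraries moved most between the pools, from a median of 5.31 CPM to 60.1 CPM, while for Max the anti-SMARCA5 libraries did, from 60.7 CPM to 227.7 CPM.

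IgG against uninjected embryos tests for an effect of injection, and edgeR called 0.0% of 9915 genes, or 0 genes, against 1440 at an unadjusted p-value under 0.05 and 207 by DESeq2. Max was at 0.21 (SE 0.28), Mga at 0.40 (SE 0.22), Myc at 0.53 (SE 0.47), Mycn at -0.37 (SE 0.63) and Zbtb17 at -0.18 (SE 0.40), with edgeR adjusted p-values from 0.392 for Mga to 0.863 for Zbtb17.

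**Figure D2:**
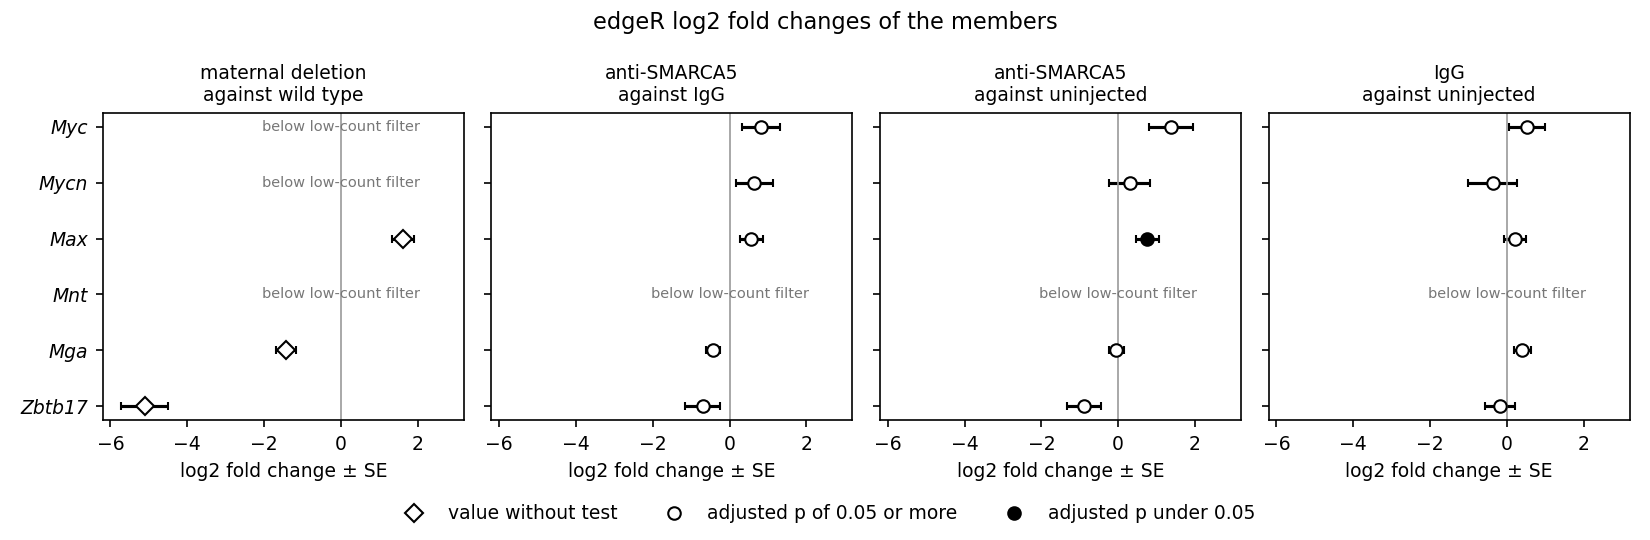
edgeR log2 fold change of each gene with its standard error, in the 4 comparisons; diamonds are given without a test, filled circles passed an adjusted p of 0.05 and open circles did not. Zbtb17 is at -5.11 after the maternal deletion and at -0.70 and -0.88 with anti-SMARCA5, and Max against uninjected is the one filled circle.

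**Figure D3:**
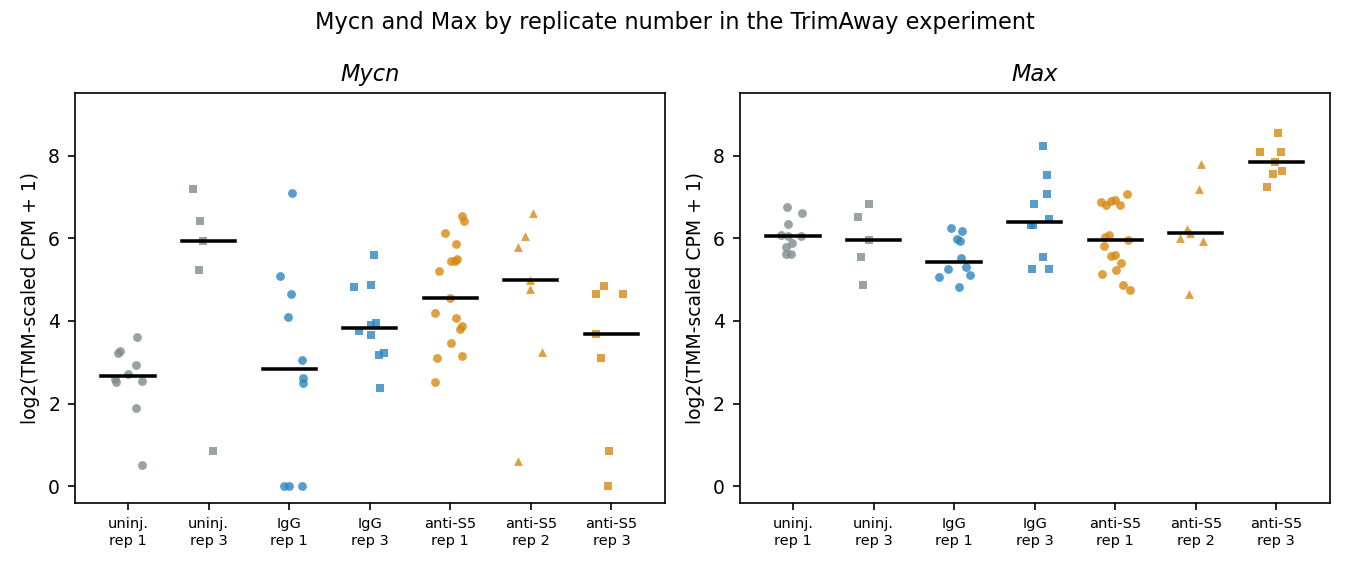
Levels of Mycn and Max, as log2(TMM-scaled CPM + 1), in each TrimAway library by group and replicate number; black lines are medians and anti-S5 stands for anti-SMARCA5. Mycn is high in 4 of 5 uninjected libraries of replicate 3, and Max is high in all 7 anti-SMARCA5 libraries of replicate 3.

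Other genes of the network were followed through lists of known members. Of 8 further members of the Myc and Mlx families, 6 were tested after the maternal deletion, and 4 rose and none fell. Their median was 1.44 against 0.18 over all genes tested, of which 30.3% were called higher and 26.4% lower. Mxd1, a Max partner that represses, rose by 2.17 (SE 0.33, edgeR adjusted p = 3.91e-07) and exceeded the median of wild type in 27 of 28 deletion libraries. Mlx, the partner of the glucose-sensing Mondo proteins, rose by 2.04 (SE 0.62, adjusted p = 0.00466). Mxd4 rose by 1.83 and Mlxip by 1.04. With total-count scaling 3 of the 6 were called higher and 1 lower, and the median was 1.21. Of 8518 genes, 2199 were then called higher and 2623 lower. With anti-SMARCA5, Mxd1 alone of 7 tested rose against uninjected embryos, by 0.68 (SE 0.25, edgeR adjusted p = 0.0363), where 17.5% of all genes were called higher. None of the 7 was called against IgG. There the block called 2 of 7 higher, against 13.1% of all genes higher and 28.1% in either direction.

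Of 12 Myc cofactors tested after the deletion, 6 fell and none rose, with a median of -0.96. The share called lay near the 56.6% of all genes, of which 26.4% were lower. Ruvbl1, an ATPase of the TIP60 and INO80 complexes, fell by 2.35 on the log2 scale (SE 0.43, edgeR adjusted p = 1.14e-05), and Paf1, of the elongation complex that bears its name, fell by 2.01 (SE 0.40, adjusted p = 4.18e-05). Against uninjected embryos 3 of 12 fell with anti-SMARCA5, among them Ruvbl2 at -1.39 and Ruvbl1 at -1.13. That is 25.0%, against 10.4% of all genes called lower and 27.9% called in either direction. None was called against IgG. The block called 3 of 12 lower there, against 15.0% of all genes lower and 28.1% in either direction. Genes of Myc protein turnover went both ways after the deletion, with 3 higher and 3 lower of 9, against 30.3% and 26.4% of all genes. The mitotic kinase gene Aurka fell by 2.23, while Ppp2r5a, a phosphatase subunit, rose by 1.6 and Fbxw7, a ubiquitin ligase subunit that targets Myc, by 1.39. With anti-SMARCA5 against uninjected embryos Aurka was called at -1.07 and Ppp2r5a at 0.78, both close to the threshold. Of 12 alternative fits, 6 lost the call of Aurka and 8 that of Ppp2r5a, the replicate block and DESeq2 among the latter.

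Genes of the complexes in which Mga and Mnt act were called in both directions. Of 9 tested genes of the Mga and Max Polycomb complex, 2 rose after the deletion (Tfdp1 by 1.99, Yaf2 by 1.82) and 3 fell, among them Hdac1 (-2.25) and L3mbtl2 (-1.98). That is 55.6% of those tested, near the 56.6% of all genes. With anti-SMARCA5 against uninjected, Rnf2, the ubiquitin ligase of the complex, rose by 0.98 and Hdac2 by 0.94, and 8 of 10 were not called, a smaller share of calls than the 27.9% of all genes. Of 7 genes of the Sin3 and NCoR corepressors, 4 rose and 2 fell after the deletion, or 85.7%. Sin3b rose by 1.69 and Ncor1 by 1.02, and Rbbp4 (-0.83) and Sap18 (-0.67) fell. Ncor1 was the one corepressor gene called with anti-SMARCA5 against uninjected embryos, at 0.67 (SE 0.21, edgeR adjusted p = 0.0161), or 14.3% of the 7.

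Few listed partners and targets of Miz-1 had enough counts. After the deletion, 4 of 7 partners and 4 of 7 targets were tested, and 2 of each were called, a share near the 56.6% of all genes. The 2 targets called were higher, against 30.3% of all genes. Hcfc1, a coactivator that also binds Myc, was called at 0.61 (edgeR adjusted p = 0.0268), a call that 5 of 10 alternative fits lost, among them those without replicate 1 and without replicate 2, and Topbp1, a replication checkpoint protein, fell by 1.03 on the log2 scale. The targets called were Mxd4 (1.83) and Vamp4, a vesicle fusion gene (1.36, SE 0.42, edgeR adjusted p = 0.00497). Vamp4 also rose with anti-SMARCA5 against uninjected embryos, by 1.10 (SE 0.34, edgeR adjusted p = 0.0157). The Miz-1 partner gene Gfi1, a repressor, gave 2.04 (SE 0.76), from a median of 0 CPM to 4.84 CPM. With that median in uninjected embryos, Gfi1 passed the low-count filter through the anti-SMARCA5 libraries, so its value is a description. Gfi1 was tested in 8 alternative fits, against 12 for Vamp4. Against uninjected embryos 1 of 5 partners, Gfi1, and 1 of 5 targets, Vamp4, were called. Over all genes 27.9% were called there, and 17.5% were called higher. The call of Gfi1 is not counted as a result for the partners, and 2 of its 8 alternative fits lost it. None was called against IgG. There the block called 2 of 5 targets higher and 1 of 4 partners lower, against 13.1% and 15.0% of all genes. With total-count scaling, none of the rises against uninjected embryos in the lists of Myc and Mlx relatives, turnover, the Polycomb complex, corepressors, Miz-1 partners and Miz-1 targets was called. That fit called 409 of 10750 genes higher. Without replicate 1, no gene of these lists or of the cofactors was called against uninjected embryos, where 1 of 10544 genes was.

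Genes that Myc is known to activate, and ribosomal protein genes with them, were mostly lower. Of 37 biosynthetic targets tested after the maternal deletion, 29 fell and 4 rose, with a median of -1.83. Of 78 cytosolic ribosomal protein genes, 76 fell and none rose, with a median of -2.02. Over all genes 26.4% were called lower and 30.3% higher, and the median was 0.18. Mybbp1a, a nucleolar regulator of rRNA synthesis, fell by 4.04 on the log2 scale (SE 0.69, edgeR adjusted p = 4.08e-06), and Bop1, which matures the large ribosomal subunit, fell by 3.83. Among ribosomal protein genes, Rpl19 fell by 3.23. The rises were led by Hk2, the glycolytic enzyme hexokinase 2, at 2.66 (SE 0.69, adjusted p = 0.00112), and Shmt2, of mitochondrial serine metabolism, at 1.75. The biosynthetic list was written from general knowledge of Myc with earlier results of these embryos known.

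With anti-SMARCA5 against uninjected embryos, 17 of 39 biosynthetic targets fell and 3 rose, and 56 of 79 ribosomal protein genes fell and none rose. Their medians were -0.77 and -0.95, against 0.13 over all genes, of which 10.4% were called lower and 17.5% higher. Mrto4, which acts in assembly of the large ribosomal subunit, and Mybbp1a fell by 1.65 each, and Rps18 fell by 1.52. Hk2 rose by 2.32 (SE 0.59, edgeR adjusted p = 0.00457) and exceeded the uninjected median in 30 of 31 libraries. Hspe1, a mitochondrial chaperonin, rose by 0.80. Total-count scaling left 1 biosynthetic target called higher and 22 lower, where 409 of 10750 genes were called higher and 1874 lower. Without replicate 1 no gene of either list was called, where 1 of 10544 genes was, while the medians were -0.99 and -1.31. Without replicate 3, 10 biosynthetic targets and 23 ribosomal protein genes fell, where 610 of 11142 genes were called lower. Of 18 maternal transcripts tested in the same comparison, 5 rose and 1 fell, with a median of 0.61, and their part in the other changes was not tested.

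Against IgG, 1 of 38 biosynthetic targets was called, Hk2, which rose by 1.65 (SE 0.45, edgeR adjusted p = 0.0368), and 2 of 79 ribosomal protein genes, Rpl29 (-1.12) and Rpl36a (-1.11), which fell. These shares, 2.63% and 2.53%, are near the 3.03% of all genes. Without well A07 of replicate 1 no ribosomal protein gene was called, where 223 of 10369 genes were. The medians were -0.54 and -0.68, against 0.04 over all genes. With total-count scaling no gene of either list was called, where 64 of 10447 genes were. With the replicate block, 22 biosynthetic targets and 58 ribosomal protein genes fell, against 15.0% of all genes, and medians were -0.87 and -1.08. Against uninjected embryos the block called 23 and 68 lower, against 16.3% of all genes, with 35.1% called in all and 18.8% higher.

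**Figure D4:**
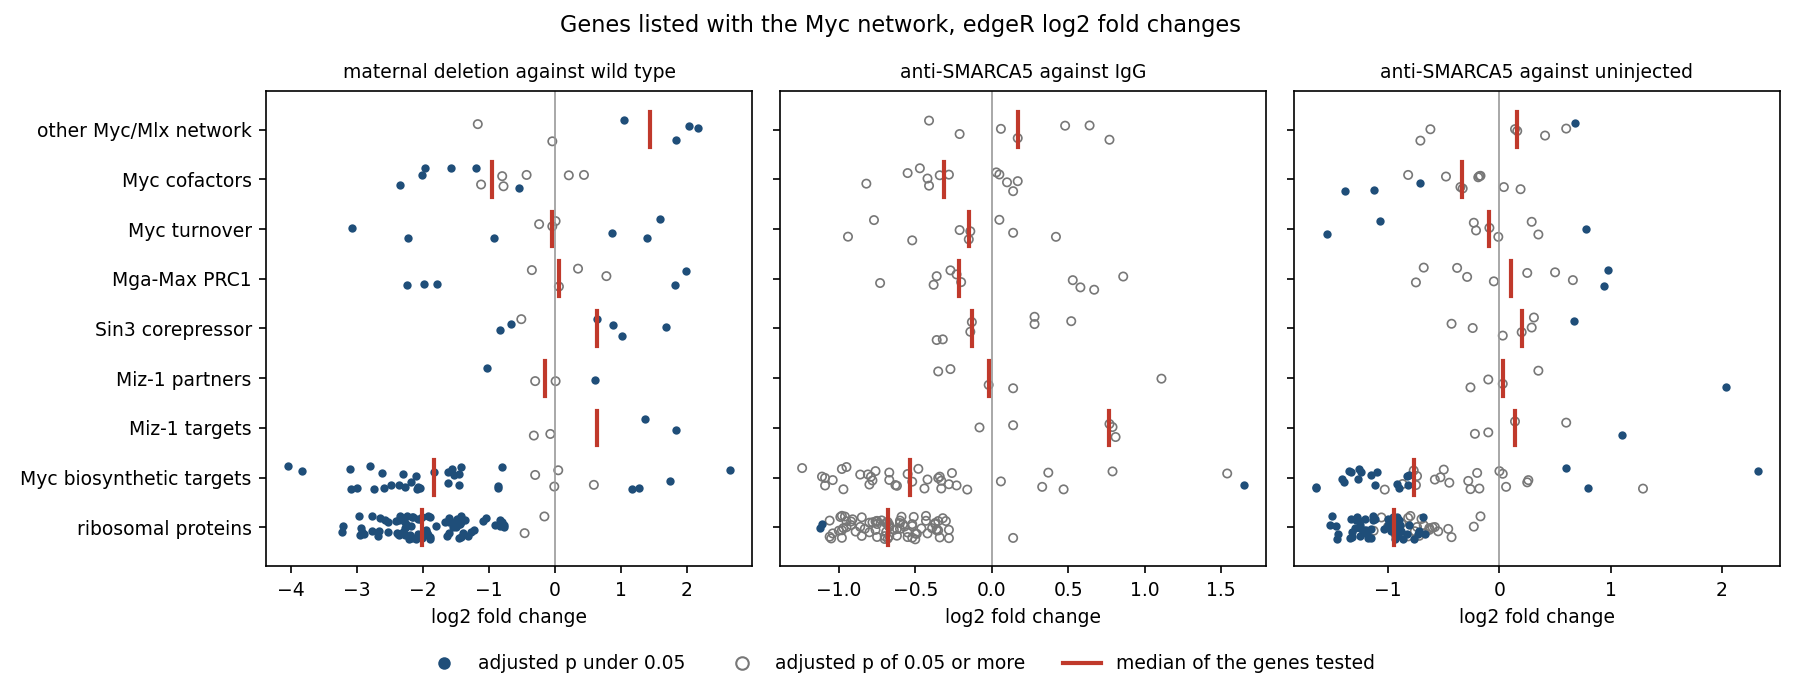
edgeR log2 fold changes of genes listed with the Myc network, 1 point per gene tested, in 3 comparisons with axes of different width; filled points passed an adjusted p of 0.05, and red lines are medians. Ribosomal protein genes and biosynthetic Myc targets lie mostly left of 0 in each comparison, while other Myc and Mlx family genes have a median of 1.44 after the maternal deletion.

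Embryos of 1 group differed widely in ribosomal protein RNA, so each member was set against it embryo by embryo. The measure was the mean of log2(TMM-scaled CPM + 1) over 79 ribosomal protein genes, and 30 relations, 6 genes in 5 groups, were tested. After Benjamini-Hochberg adjustment 9 passed 0.05, 6 of them positive and 3 negative. Adjusted p-values are those of r unless rho is named, and 10 relations passed by rho, 7 of them among the 9. Zbtb17 and Mycn in uninjected embryos passed by r and not by rho (adjusted permutation p = 0.0506 and 0.0973). Zbtb17 gave the strongest positive relations. Pearson's r was 0.85 (Spearman's rho 0.86) over 20 IgG embryos and 0.82 (rho 0.85) over 31 anti-SMARCA5 embryos, in both with a permutation p-value of 1e-05, the smallest that the resampling can give, and an adjusted p of 0.0001. Over 15 uninjected embryos r was 0.75 (rho 0.61, permutation p = 0.00096, adjusted p = 0.0048). With replicate numbers centred, r was 0.82, 0.76 and 0.73, with adjusted permutation p-values of 0.00045, 0.0003 and 0.015. Without the 2 embryos farthest from the median of the ribosomal protein mean, r was 0.81, 0.80 and 0.62, and the last of these, for uninjected embryos, no longer passed (adjusted permutation p = 0.0558).

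In the anti-SMARCA5 group the 3 embryos with the lowest ribosomal protein mean, 2.27 to 3.22, held 0, 8.76 and 2.33 CPM of Zbtb17, and the 3 with the highest, 6.79 to 7.04, held 61.9, 95.4 and 97.1 CPM. IgG embryos showed the same order, at 5.77, 0.901 and 22.8 CPM against 132.1, 128.3 and 188.8 CPM. By replicate number, r was 0.94 and 0.80 in IgG replicates 1 and 3, and 0.80, 0.54 and 0.90 in anti-SMARCA5 replicates 1, 2 and 3. Zbtb17 and ribosomal protein genes shared these libraries and their scaling. Against log10 of the total counts, Zbtb17 had r of -0.61 over anti-SMARCA5, -0.14 over IgG and 0.66 over uninjected embryos, and the ribosomal protein mean had -0.46, -0.10 and 0.28. Maternal transcripts also moved along this axis: in the 3 lowest anti-SMARCA5 embryos their mean was 7.55, 6.24 and 7.13, and in the 3 highest 5.42, 5.85 and 5.61. In the same embryos, genes of the 2-cell stage moved further and the other way. Their means were 1.27, 0.91 and 1.13 in the 3 lowest and 6.13, 5.64 and 6.85 in the 3 highest. In uninjected embryos they fell instead, from 5.52, 6.26 and 5.83 in the lowest to 3.8, 3.89 and 3.36 in the highest. Wild-type embryos also went down, from 5.96, 6.87 and 5.56 to 2.71, 2.95 and 5.15. IgG embryos held 2.74, 5.41 and 3.92 against 4.11, 5.76 and 4.77, and maternal deletion embryos 1.44, 1.07 and 0.88 against 1.53, 5.1 and 4.21. The value of 4.21 was that of well A04 of replicate 2, which went against its label. The part of depth, of maternal transcripts and of 2-cell genes in the relation was not tested.

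The ribosomal protein axis is shared by many genes. Of 7389 other genes with a mean of at least 16 CPM, 5.45% had an r as high as that of Zbtb17 in IgG embryos, 6.08% in anti-SMARCA5 embryos and 5.9% in uninjected embryos. In wild-type embryos Zbtb17 gave 0.43 (permutation p = 0.0468, adjusted p = 0.10), and by rho, at 0.64, it passed (adjusted permutation p = 0.00789). For r, 25.0% of these genes were as high. With replicate numbers centred, r was 0.10 (adjusted permutation p = 0.857), and over libraries of at least 500000 counts 0.30 (adjusted permutation p = 0.578). It passed with total-count scaling, at 0.58 (adjusted permutation p = 0.0199), and without the 2 farthest embryos, at 0.84 (adjusted permutation p = 0.00015). Well A02 of replicate 2, with the highest ribosomal protein mean of the group (7.85) and the lowest Zbtb17, decided the value of r. Without it, a choice made after it was seen, r was 0.86 (adjusted permutation p = 7.5e-05), and 0.70 with replicate numbers centred (adjusted permutation p = 0.00532). In maternal deletion embryos, where 21 of 28 libraries were at or under 3 counts, r was 0.08 (rho -0.05, adjusted permutation p = 0.801).

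Max ran against the ribosomal protein genes in injected embryos. Over IgG embryos r was -0.83 (rho -0.69, permutation p = 3e-05, adjusted p = 0.000225), and 1.15% of genes were as low. Over anti-SMARCA5 embryos it was -0.73 (rho -0.74, permutation p = 1e-05, adjusted p = 0.0001), and 5.13% of genes were as low. The 3 IgG embryos with the lowest ribosomal protein mean held 299.1, 184.6 and 133.8 CPM of Max, and the 3 with the highest held 60.3, 38.5 and 27.4 CPM. The most negative values were those of replicate 3, at -0.93 against -0.30 in replicate 1 of IgG. In anti-SMARCA5 r was -0.92 in the 7 embryos of replicate 3, against -0.54 and -0.49 in replicates 1 and 2. Over the 17 embryos of anti-SMARCA5 replicate 1, rho was -0.66 (permutation p = 0.00524). Whether r differed between replicates was not tested. With replicate numbers centred r was -0.78 (adjusted permutation p = 0.0023) over IgG and -0.55 (adjusted permutation p = 0.0111) over anti-SMARCA5 embryos, and without the 2 farthest embryos -0.61 and -0.69. With total-count scaling it was -0.57 (adjusted permutation p = 0.0277) over IgG embryos and -0.39 (adjusted permutation p = 0.0602) over anti-SMARCA5 embryos. In the other groups it did not pass, at -0.10 in wild-type, -0.08 in maternal deletion and -0.19 in uninjected embryos. The maternal deletion value rested on the 2 farthest embryos, since without them r was 0.50 (adjusted permutation p = 0.0373). These were wells A04 and C05 of replicate 2, with ribosomal protein means of 7.33 and 6.16 against a group median of 3.17. Well A04, at 16.3 CPM of Max, went against its label, and r without it alone was not computed. Whether r differed between groups was not tested.

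**Figure D5:**
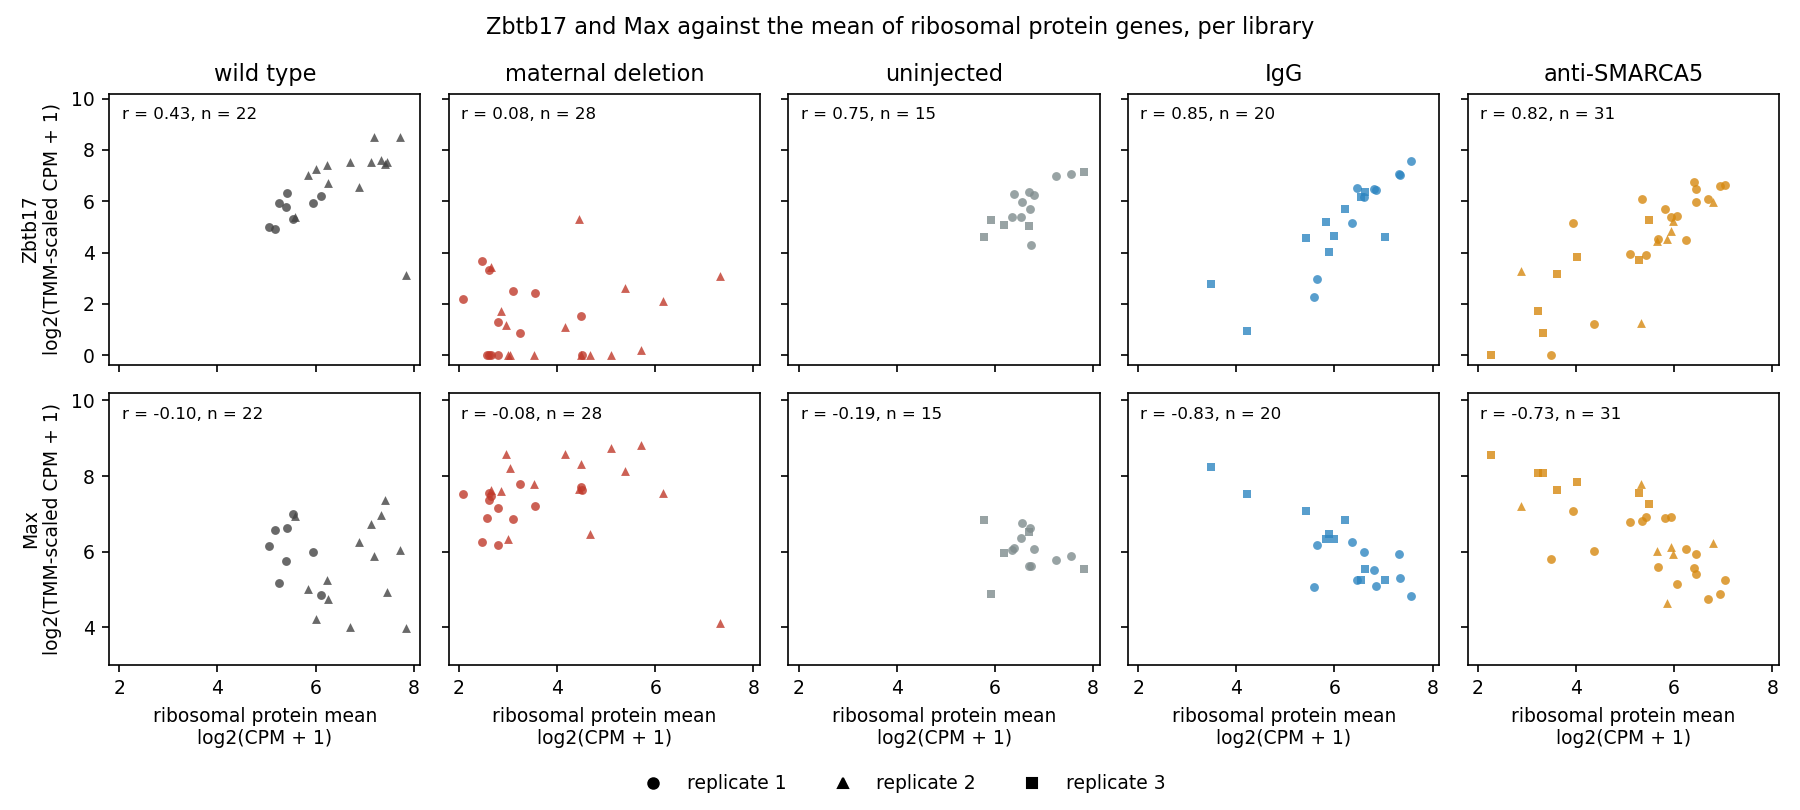
Zbtb17 (top) and Max (bottom), as log2(TMM-scaled CPM + 1), against the mean of log2(TMM-scaled CPM + 1) over 79 ribosomal protein genes, 1 point per embryo library, by group and replicate number. Zbtb17 rises with the ribosomal protein mean in the TrimAway groups (r of 0.75 to 0.85) and lies near 0 after the maternal deletion, and Max falls with it in IgG and anti-SMARCA5 embryos (r of -0.83 and -0.73).

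Myc and Mnt, though low, rose with the ribosomal protein mean in IgG embryos, at r of 0.73 for Myc (rho 0.68, permutation p = 0.0002, adjusted p = 0.0012) and 0.60 for Mnt (rho 0.75, permutation p = 0.00373, adjusted p = 0.014). Of all genes, 14.0% and 21.4% were as high, so these values lay well inside the spread of genes. Myc in wild-type embryos gave 0.62 (rho 0.62, permutation p = 0.00287, adjusted p = 0.0123), but with replicate numbers centred it was 0.35 (adjusted permutation p = 0.371), as all 8 embryos of replicate 1 had no Myc counts. Mycn gave the third negative relation, over uninjected embryos, at -0.67 (rho -0.54, permutation p = 0.00721, adjusted p = 0.024). It did not pass without the 2 farthest embryos (-0.52, adjusted permutation p = 0.118). Over IgG embryos Mycn was at -0.46 (adjusted permutation p = 0.1) and passed by rho (-0.62, adjusted permutation p = 0.0157). There r was -0.55 without the 2 farthest embryos (adjusted permutation p = 0.0474) and -0.39 with replicate numbers centred (adjusted permutation p = 0.106). Of all genes, 22.2% had an r as low. Myc in anti-SMARCA5 embryos was at -0.17, and passed with replicate numbers centred, at -0.52 (adjusted permutation p = 0.015). Mga passed in no group by r, and in maternal deletion embryos by rho (0.47, adjusted permutation p = 0.0334, with r of 0.38 and adjusted permutation p = 0.10).

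Over the 11 pools of embryos, given by group and replicate number, the genes most like Zbtb17 in mean log2 level were Zfyve27 (r = 0.992), Gtf2f2 (0.99) and Irgq (0.99), among 7466 genes of at least 16 CPM on average. Max was most like Parl (0.978), Mapkap1 (0.971) and Epc1 (0.97). Mga was most like Naa15 (0.953), Dkc1 (0.951) and Ccdc66 (0.94), Mycn most like Itpripl1 (0.969), Myc most like Nipal1 (0.959) and Mnt most like Itfg3 (0.945). Between embryos of the same pool these likenesses were weaker. They were 0.29, 0.37 and 0.46 for the 3 genes most like Zbtb17, and 0.34, 0.36 and 0.17 for those most like Max, over 116 libraries. Among the 6 members themselves, r between embryos of the same pool ran from -0.26, for Max with Zbtb17, to 0.23, for Mycn with Max. These correlations describe libraries that share scaling and depth.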

How the data were processed

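The submitters measured polyadenylated RNA of single 2-cell embryos with the RNA part of scNMT-seq and Nextera XT, per the labels' protocols. Reads were trimmed with Trim Galore 0.6.5 and cutadapt 2.3 and aligned with HISAT2 2.1.0 to GRCm38, per the submitters' processing notes. The authors deposited 2 tables of raw read counts per gene. The annotation and the handling of strand, multiple matches and duplicates are not given in the sources used here. Odd counts outnumbered even ones among low values: 134662 cells of the tables held 1, 30228 held 2 and 84269 held 3. The reason is not given in the sources used here and was not tested, so single counts may not be independent molecules. Lines of 1 gene identifier were summed, which left 25900 genes. Of 135 embryo libraries, 19 with under 100000 counts were left out, among them all 6 of IgG replicate 2.

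Counts were compared with edgeR 4.0.16 (TMM scaling, filterByExpr, robust quasi-likelihood F test) in R 4.3.3, each comparison on its own groups, with Benjamini-Hochberg adjustment over all genes tested. Levels are CPM scaled by TMM over all libraries of a table. Relations with ribosomal protein genes used two-sided permutation tests of 100000 resamples. Scripts were tested on simulated data. The titles give a replicate number and do not say that groups of the same number shared a pool. Deviations of same-numbered groups from their group means correlated across genes at 0.54 (deletion) and 0.598 (anti-SMARCA5 and IgG). For anti-SMARCA5 and uninjected this was 0.0828, and for IgG and uninjected 0.428, and the replicate block was fitted in each.

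The 6 members are named throughout. Of each other list, the 2 largest rises and 2 largest falls past the threshold in a comparison are named, and for likeness the genes of highest r. The members, lists and tests were chosen with earlier results of these data known. Alternatives were DESeq2 1.42.0, its size factors, total-count scaling, no filter, other depth limits, the replicate block, and leaving out pools, doubtful libraries or the library of highest Myc. Results of some listed genes are not reported here.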

Additional observations from a re-analysis of the deposited data

Results flagged for a closer look

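The change of 2 genes with anti-SMARCA5 against uninjected embryos differed between the pools of replicates 1 and 3, by an interaction fitted with edgeR over 10283 genes. For Mycn the difference, replicate 3 minus replicate 1, was -4.88 on the log2 scale (SE 0.98, adjusted p = 0.00178). For Max it was 1.72 (SE 0.48, adjusted p = 0.0169). The same interaction passed the threshold for 1299 genes. In IgG against uninjected embryos, which shares the uninjected libraries, the differences were -3.92 for Mycn (adjusted p = 0.254) and 1.17 for Max (adjusted p = 0.432). The uninjected group of replicate 3 held 5 libraries.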

How the results depend on the processing

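The number of genes called moved by more than 1.5 times in some settings, and the cause was not tested. Without the filter on low counts it was 10416 for maternal deletion against wild type (4825 with it), 3010 for anti-SMARCA5 against IgG (317 with it), 6184 for anti-SMARCA5 against uninjected (2999 with it), 881 for IgG against uninjected (0 with it) and 136 for the interaction of replicates 1 and 3 (37 with it). For anti-SMARCA5 against IgG it was 1029 with DESeq2, 64 with total-count scaling, of which 17 were higher, 150 and 661 with limits of 500000 and 1000 counts, and 521 without the library that held no Trim21. DESeq2 called 207 genes for IgG against uninjected. Leaving out 1 replicate number gave 2801 to 3879 genes for the deletion, 0 to 591 against IgG, 1 to 2921 against uninjected and 0 to 1 for IgG against uninjected. Both the 0 and the 1 of the anti-SMARCA5 comparisons came without replicate 1. Total-count scaling moved the median log2 fold change of all genes to -0.036 from 0.183 in the deletion comparison, and to -0.287 from 0.127 in anti-SMARCA5 against uninjected. Of 30 relations with ribosomal protein genes, 9 passed, and 14 did with CPM of total counts.

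With the replicate block, which pairs pools of the same number, 2835 genes were called for anti-SMARCA5 against IgG. Besides Max and Mga against IgG and Max against uninjected, the block changed no call of a member in the comparisons of groups. Among relations it ended those of Myc in wild-type and of Mycn in uninjected embryos (-0.68, adjusted permutation p = 0.149), and that of Myc in anti-SMARCA5 embryos passed.

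Signs of changes that had not passed the threshold turned in these cases. Max in IgG against uninjected was -0.06 with the block, -0.17 with total-count scaling and ranged from -0.49 to 0.68 when 1 replicate number was left out. Mycn there was 0.17 with the block and -1.93 to 2.00 when 1 was left out, and Zbtb17 -0.71 to 0.22, each turning without replicate 3. In anti-SMARCA5 against uninjected, Mycn was -0.13 with total-count scaling and -1.30 without replicate 1, and Mga ranged from -0.23 to 0.63, turning without replicate 1. Mycn also passed there without replicate 3, at 2.65 (edgeR adjusted p = 0.00173). Myc against IgG was -0.05 with DESeq2, the interaction of Mga was -0.10 with total-count scaling, and r of Zbtb17 in maternal deletion embryos was -0.12 without the 2 farthest embryos. After the maternal deletion, 11 fits kept the signs of Zbtb17 (-5.46 to -4.37), Max (1.08 to 2.07) and Mga (-1.72 to -1.35). Low counts limit Myc, Mycn and Mnt, and only 2 or 3 pools stand behind each group.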
